A study of Homo sapiens with 20 samples.

Results

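The lymphotoxin gene LTB and the core genes of the NF-kB pathway were examined in T-cell acute lymphoblastic leukemia (T-ALL) lines in which NOTCH signalling was inhibited. The members were LTB, LTA, NFKB1, NFKB2, RELA, RELB, NFKBIA, CYLD, TNFAIP3 and BIRC3, 10 genes in all. A probe set counted as a member's where the platform annotation named that gene and no other, which gave 19 of the 22277 probe sets on the array and 9 of its 11963 singly named genes. The annotation table used here named no probe set for BIRC3, so its expression was not analysed, and it enters only the count of promoter motifs. The members were chosen by earlier results of these data, among them the signal change of LTB between CompE and DMSO, so the changes of all members between these treatments are given as a description and carry no test.

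Each of 10 human T-ALL lines was cultured for 72 h with 100 nM of CompE, a gamma-secretase inhibitor, or with the vehicle DMSO, and gave 1 array per treatment, 20 arrays in all. The lines were RPMI8402, PF382, P12-ICHIKAWA, MOLT3, KOPTK1, HPB-ALL, DND41, CUTLL1, CCRF-CEM and ALL-SIL, all described by the series as carrying activating mutations in NOTCH1, in the vehicle arm as well. Gamma-secretase frees the active intracellular part of NOTCH receptors, so the comparison asks which genes respond when that release is blocked. Values are MAS5 signals of bulk RNA scaled to a common mean per array, so fewer expressing cells and less RNA per cell cannot be told apart, and separate cultures for the 2 treatments of a line are not stated.

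NF-kB dimers of REL-family proteins are held in the cytoplasm by inhibitors such as IkB alpha, the product of NFKBIA. In the canonical branch, receptor signals activate the IKK complex, which marks the inhibitor for destruction and frees RELA with the NFKB1 product. In the noncanonical branch, receptors such as the lymphotoxin beta receptor trigger the processing of the NFKB2 product, which pairs with RELB. LTB is the membrane anchor of the lymphotoxin heterotrimer with LTA, and many of these genes are themselves NF-kB targets. In T-ALL models NOTCH1 has been described as an activator of NF-kB, in part through repression of the deubiquitinase CYLD by HES1.

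The sequence just upstream of 3 members is printed because LTB had the largest change of all members, CYLD is the gene described as a HES1 target, and NFKBIA is a well-known target of NF-kB itself. The sequences come from RefSeq (GRCh38.p14) and are the 250 bases before 1 annotated transcription start of each gene, 5′ to 3′ on the gene's strand, with matches to the NF-kB consensus motif in capitals. Their positions are chr6:31582426-31582675, minus strand, for LTB, chr16:50741836-50742085, plus strand, for CYLD and chr14:35404750-35404999, minus strand, for NFKBIA.
LTB: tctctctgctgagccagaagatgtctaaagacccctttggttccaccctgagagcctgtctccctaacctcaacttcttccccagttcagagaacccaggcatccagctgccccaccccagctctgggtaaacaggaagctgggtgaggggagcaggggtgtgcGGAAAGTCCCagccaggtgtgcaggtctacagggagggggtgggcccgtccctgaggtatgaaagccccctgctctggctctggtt
CYLD: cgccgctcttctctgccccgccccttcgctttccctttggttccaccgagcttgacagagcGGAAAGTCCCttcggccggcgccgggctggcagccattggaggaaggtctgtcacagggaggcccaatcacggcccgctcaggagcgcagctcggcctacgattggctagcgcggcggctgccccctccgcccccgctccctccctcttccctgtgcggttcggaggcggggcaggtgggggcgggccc
NFKBIA: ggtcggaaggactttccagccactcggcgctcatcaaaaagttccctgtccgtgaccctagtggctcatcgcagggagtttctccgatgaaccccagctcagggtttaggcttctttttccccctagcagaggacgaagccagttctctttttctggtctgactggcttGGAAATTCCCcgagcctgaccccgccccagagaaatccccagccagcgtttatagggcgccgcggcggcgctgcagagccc

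The match in LTB, GGAAAGTCCC, began 86 bases before the start, and CYLD held the same 10 letters 189 bases before the start shown. The windows of the other 2 annotated CYLD starts held no match. NFKBIA held GGAAATTCCC 81 bases before its start. On either strand, with overlapping matches counted separately, 8 of the 9 members that have such windows held the motif before at least 1 annotated start, RELA being the exception. RELB had no window. Among all 27305 genes with windows of this length, 11.8% held it before at least 1 start. The members had more annotated starts per gene than genes in general, which favours a match before at least 1. Counted by window, 10 of 17 member windows held the motif, against 9.96% of all 35116 windows, and windows of 1 gene can overlap. The core of the motif bound by RBPJ, the DNA-binding partner of NOTCH, TGGGAA on either strand, lay before at least 1 start of 4 of the 9 members (LTA, NFKB1, NFKB2 and RELA), against 24.6% of all genes, and was not found in these windows of LTB, CYLD, NFKBIA, TNFAIP3 or BIRC3. Counted by window, this core lay in 6 of 17, against 20.8% of all windows. In NFKB1 and NFKB2 it overlapped matches to the NF-kB motif. These are matches of letters and no measure of binding.

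The arrays were first checked against their labels. All 8 T-cell markers examined passed the filter on low signal, with summed signals of 9080 to 21128 in CompE and 9006 to 18551 in DMSO. Of the other cell types, 0 of 5 myeloid and 0 of 3 erythroid markers found on the array passed the filter, as did 3 of 5 B-cell and 3 of 6 epithelial and fibroblast markers. B-cell sums were 131 to 2025 in CompE and 145 to 2626 in DMSO, and their highest single signal was that of CD79A, at 2469, while MS4A1 and PAX5 lay below the filter. HES1, a direct NOTCH target, had signals of 21.5 to 981 (median 213) in CompE and 117 to 1557 (median 732) in DMSO, and was lower in CompE in all 10 lines, with a log2 change of -1.71 ± 0.304 (SE, limma adjusted p = 0.00775). Averaged over all its probe sets, HES1 was at -0.68 (adjusted p = 0.0474). The 3′/5′ probe ratio of ACTB, a measure of RNA degradation, was 1.22 to 9.76 in CompE and 1.02 to 3.32 in DMSO and was higher in CompE in 9 of 10 lines. KOPTK1 held the highest ratio under both treatments, so the mean changes of LTB, RELA, RELB and NFKBIA are also given without it. Means of LTA and of dimmer probe sets are given only with it. The part of RNA quality in the changes below was not tested.

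LTB was the member with the largest change. Under CompE its signal was 2957 in HPB-ALL, against 615 in DMSO, and 1297 in CUTLL1, against 277 in DMSO. PF382 stood at 430 in CompE and 126 in DMSO, RPMI8402 at 642 in CompE and 218 in DMSO, and KOPTK1 at 2143 in CompE and 736 in DMSO. These 5 lines had the largest rises, of 1.49 to 2.24 on the log2(signal + 16) scale that is used for all changes. MOLT3 read 722 in CompE and 336 in DMSO, and ALL-SIL 935 in CompE and 647 in DMSO. CCRF-CEM, the line with the lowest level, read 59.8 in CompE and 31.0 in DMSO. P12-ICHIKAWA, which already had the highest DMSO signal, read 2530 in CompE and 2321 in DMSO, a change of 0.12. DND41 was the 1 line with less LTB in CompE, at 221 against 360 in DMSO, a change of -0.67.

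Over the 10 lines the LTB change averaged 1.08 ± 0.921 (SD), which corresponds to a 2.11-fold rise, and it was above 0 in 9 lines. The mean lay between 0.95 without HPB-ALL and 1.27 without DND41, and was 1.03 without KOPTK1. The ranges of the treatments overlapped, at 59.8 to 2957 in CompE and 31.0 to 2321 in DMSO. Among the 7695 tested genes the LTB change was the 2nd highest, and its spread over lines was wider than that of 97.9% of genes. This is the value that brought LTB into the list, so its rank is no evidence of its own. LTB lies at chr6:31580558-31582425 (GRCh38.p14), in the major histocompatibility region beside TNF and LTA, and has 1 probe set here, 207339_s_at.

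**Figure D1:**
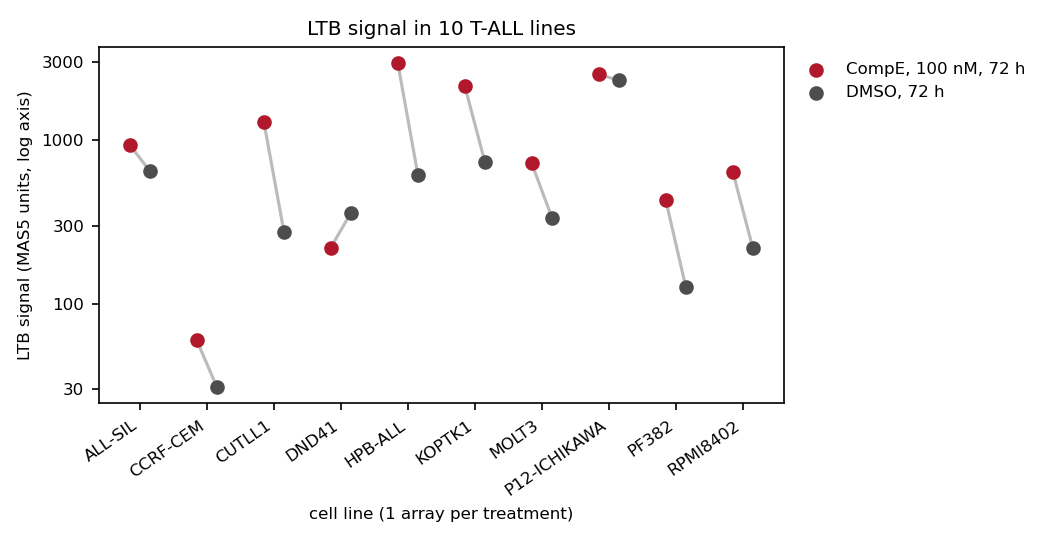
LTB signal (MAS5 units, log axis) in 10 T-ALL lines, with 1 array after CompE (red, left) and 1 after DMSO (grey, right) joined by a line. LTB was higher in CompE in 9 lines and lower in DND41, and DMSO signals ran from 31.0 in CCRF-CEM to 2321 in P12-ICHIKAWA.

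LTA, the partner of LTB in the lymphotoxin heterotrimer, was dim throughout. Its probe set 206975_at lay below the filter, at a signal of 3.36 to 109 (median 15.5) in CompE and 4.05 to 44.7 (median 23.4) in DMSO. The highest signal, 109, was that of KOPTK1 in CompE, against 38.1 in DMSO. The change averaged 0.05 ± 0.638 (SD, n = 10) and was above 0 in 6 lines, so no common direction was visible at this signal. TNF, the third gene of the locus, is described with the other ligands below.

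Of the REL-family genes, NFKB1 differed widely between lines and little between treatments. It read 38.1 to 927 (median 187) in CompE and 27.2 to 882 (median 199) in DMSO. DND41 was highest, at 927 in CompE and 882 in DMSO, followed by HPB-ALL at 769 in CompE and 643 in DMSO. P12-ICHIKAWA was lowest, at 38.1 in CompE and 27.2 in DMSO. The change averaged 0.14 ± 0.292 (SD, n = 10), with MOLT3 highest at 0.61 and CCRF-CEM lowest at -0.25. P12-ICHIKAWA was thus the line with the highest LTB and the lowest NFKB1 signal in DMSO. Over all 10 lines the levels of the 2 genes correlated weakly, at r = -0.24 (rho = -0.05) in DMSO and -0.12 in CompE. Without CCRF-CEM and P12-ICHIKAWA the value in DMSO was 0.15.

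The 3 probe sets of NFKB2 disagreed. The brightest, 207535_s_at, read 13.1 to 121 (median 72.2) in CompE and 55.5 to 154 (median 92.3) in DMSO. Its change averaged -0.67 ± 0.939 (SD, n = 10), below 0 in 7 lines. DND41 was lowest at 13.1 in CompE against 140 in DMSO, followed by MOLT3 at 14.2 in CompE against 91.0 in DMSO and PF382 at 24.3 in CompE against 82.4 in DMSO. The other probe sets, 209636_at and 211524_at, lay below the filter and changed by 0.21 ± 0.739 and 0.37 ± 0.581 (SD, n = 10). The mean of 209636_at includes KOPTK1 at 1.63, and its value without this line was not computed. Averaged over all 3 probe sets, NFKB2 was at -0.03. In DND41, the line with the largest fall by the brightest probe set, the dim ones changed by 0.13 and 0.75. No direction is therefore given for NFKB2.

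RELA was among the brighter members and changed little on average. It read 341 to 782 (median 509) in CompE and 242 to 820 (median 513) in DMSO, with a mean change of -0.04 ± 0.454 (SD, n = 10). KOPTK1 stood apart, with 495 in CompE and 242 in DMSO, a change of 0.98, and without it the mean was -0.16. DND41 moved the other way, with 504 in CompE and 816 in DMSO. The second RELA probe set, 209878_s_at, was dimmer and changed by -0.22 ± 0.526 (SD, n = 10), with DND41 again lowest, at -1.10.

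RELB, the partner of the NFKB2 product, was low in most lines. It read 10.0 to 205 (median 61.6) in CompE and 6.51 to 212 (median 36.4) in DMSO. HPB-ALL was highest, at 205 in CompE and 212 in DMSO, and ALL-SIL lowest, at 10.0 in CompE and 6.51 in DMSO. The change averaged 0.17 ± 0.446 (SD, n = 10) and was largest in KOPTK1, at 1.13, where RELB read 71.1 in CompE and 23.8 in DMSO. Without KOPTK1 the mean change was 0.06.

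NFKBIA, which encodes IkB alpha, was the brightest member by mean log2 level. It read 386 to 1346 (median 838) in CompE and 460 to 1121 (median 752) in DMSO. In KOPTK1 it read 1346 in CompE and 492 in DMSO, a change of 1.42, while the other 9 lines lay between -0.48 and 0.10. The mean change was 0.04 ± 0.519 (SD, n = 10), and it was -0.11 without KOPTK1 and -0.03 after median centring of the arrays. KOPTK1 thus had the largest change of NFKBIA, RELA, RELB and LTA alike, and it is also the line with the ACTB ratio of 9.76 in CompE and 3.32 in DMSO.

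**Figure D2:**
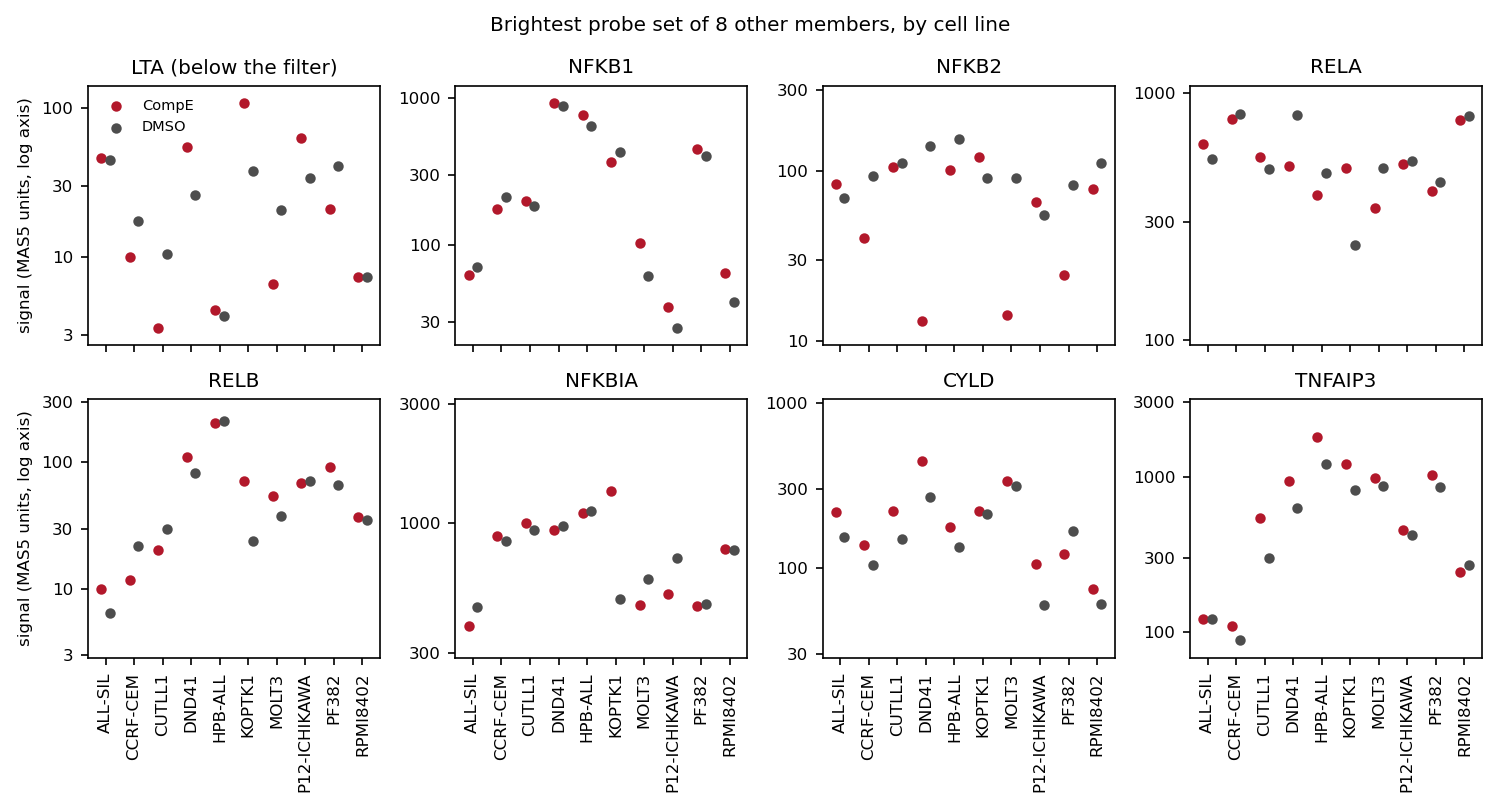
Signal (MAS5 units, log axis) of the brightest probe set of 8 members other than LTB in each line, CompE in red on the left and DMSO in grey on the right, 1 array each. NFKB1 runs from 38.1 to 927 in CompE and from 27.2 to 882 in DMSO, and NFKBIA differs between treatments mainly in KOPTK1, at 1346 in CompE against 492 in DMSO.

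CYLD and TNFAIP3 are brakes on the pathway, which remove or edit ubiquitin chains on its adaptors. CYLD by its brightest probe set, 213295_at, read 74.8 to 442 (median 198) in CompE and 59.5 to 315 (median 152) in DMSO. It was higher in CompE in 9 lines, by 0.31 ± 0.331 on average (SD, n = 10). P12-ICHIKAWA, at 106 in CompE against 59.5 in DMSO, and DND41, at 442 in CompE against 270 in DMSO, had the largest rises. PF382, at 122 in CompE against 167 in DMSO, was the 1 line that was lower. The HES1 change was -3.52 in PF382, but only -0.40 in P12-ICHIKAWA and -0.66 in DND41. In CUTLL1 HES1 changed by -3.51 and CYLD by 0.51, and in HPB-ALL by -3.04 and 0.36. A relation of the 2 changes over lines was not tested. The second brightest, 221903_s_at, was also higher in 9 lines, by 0.18 ± 0.382, with RPMI8402 the exception at -0.71. The mean changes of the 7 CYLD probe sets ran from -0.03 to 0.31 and 5 were above 0. Averaged over all 7, CYLD was at 0.13, against 0.31 by the brightest.

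TNFAIP3 read 110 to 1809 (median 742) in CompE and 88.2 to 1211 (median 524) in DMSO by its brightest probe set, 202644_s_at. It was higher in CompE in 9 lines, by 0.32 ± 0.297 on average (SD, n = 10). CUTLL1 had the largest rise, 0.81, at 541 in CompE and 301 in DMSO, followed by HPB-ALL at 1809 in CompE against 1211 in DMSO, DND41 at 942 in CompE against 631 in DMSO and KOPTK1 at 1197 in CompE against 818 in DMSO. RPMI8402 was the 1 lower line, at 244 in CompE against 269 in DMSO. The other probe set, 202643_s_at, changed by 0.20 ± 0.357 and was above 0 in 7 lines, but in KOPTK1 it gave -0.41 where the brightest gave 0.54.

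**Figure D3:**
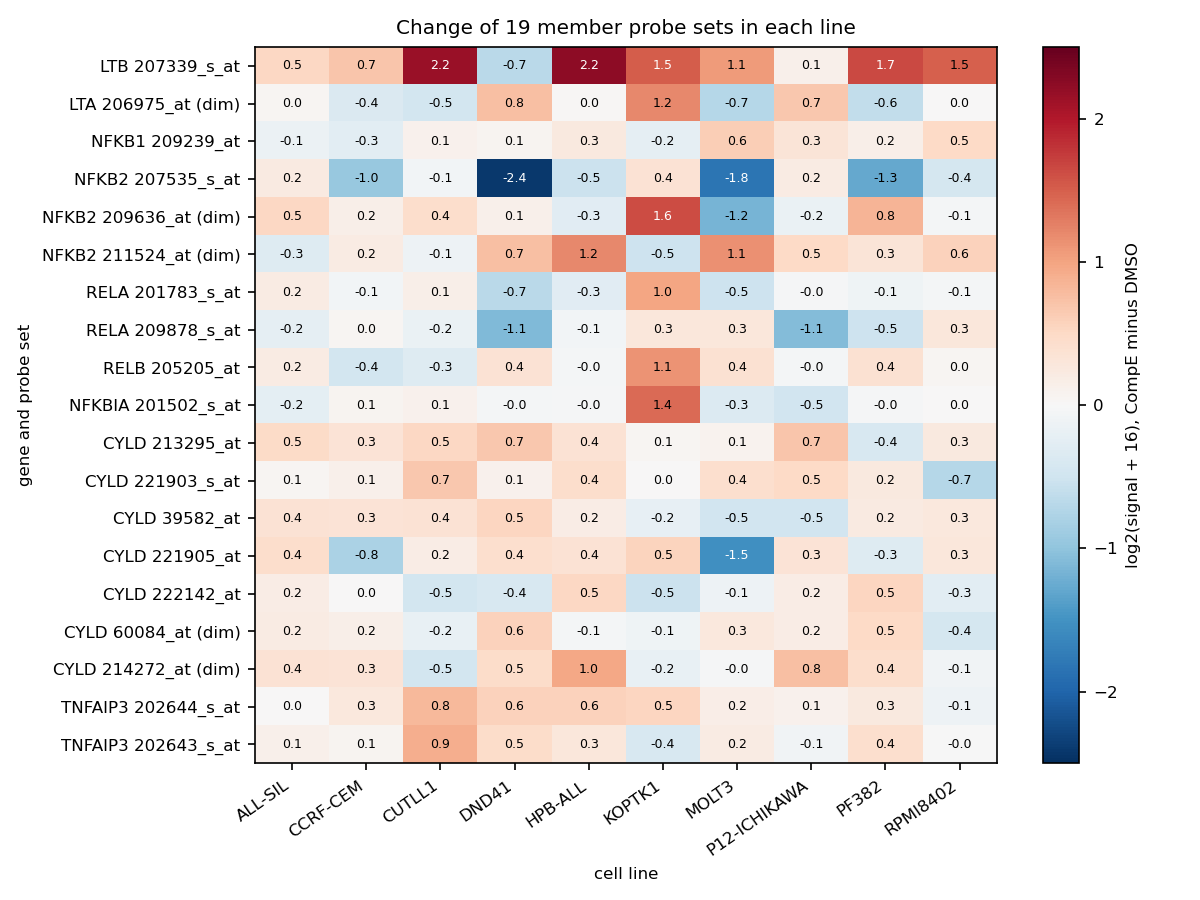
Change of each of the 19 member probe sets in each line, as log2(signal + 16) in CompE minus DMSO, red for higher and blue for lower in CompE; "dim" marks the 5 probe sets below the filter. The LTB row is positive in 9 lines and negative in DND41, and the rows of NFKB2 differ in direction.

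Of the 8 members that passed the filter, LTB was the 1 past the threshold in the limma fit over all genes. LTB was chosen by this change, so that is no test of it. In the same fit 7.17% of genes were called (3.94% higher and 3.24% lower in CompE). LTB, CYLD and TNFAIP3 were higher in CompE in at least 9 of 10 lines, as were 8.51% of all tested genes, and 0 members were lower in at least 9 lines, as were 5.87% of genes. The members' median change was 0.15, and that of all tested genes 0.04. These counts use the contrast on which the members were chosen, and nothing is read from them.

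The level of each member in each line, taken over both arrays of the line, was tested across lines. The mean of the 2 arrays includes the CompE array of the line, so uneven changes enter the tested level and the order of lines. For LTB, HPB-ALL ranked 2 by this mean, though in DMSO it read 615, below KOPTK1 at 736 and ALL-SIL at 647. The error of the test is the spread of the treatment change over lines. A member with uneven changes, such as LTB or NFKB2, thus has a larger error. Of the 8 tested members 7 differed between lines (limma F-test of cell line, adjusted p under 0.05), as did 76.3% of all genes. NFKB1 (adjusted p = 5.94e-10), TNFAIP3 (1.44e-09) and LTB (5.69e-06) had the smallest values, followed by RELB (1.75e-05) and CYLD (1.89e-05). NFKBIA (0.00622) and RELA (0.0121) also passed, and NFKB2 did not (0.283). In DMSO the spread of NFKB1 over lines was wider than that of 96.0% of genes, that of LTB wider than 95.6% and that of TNFAIP3 wider than 92.1%, whereas NFKBIA lay at 49.2%.

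The order of the lines was not the same for each member. Neighbouring lines in an order were called apart where their means differed by over 2 standard errors of the difference. LTB ran from P12-ICHIKAWA through HPB-ALL, KOPTK1, ALL-SIL, CUTLL1, MOLT3, RPMI8402 and DND41 to PF382 and CCRF-CEM, and only CCRF-CEM, at 5.90 on the log2 scale against 7.98 in PF382, was apart from its neighbour. NFKB1 ran from DND41 and HPB-ALL through PF382, KOPTK1, CCRF-CEM, CUTLL1, MOLT3, ALL-SIL and RPMI8402 to P12-ICHIKAWA. It had 4 such gaps, below HPB-ALL, KOPTK1, CUTLL1 and RPMI8402, the last only narrowly (0.479 against a limit of 0.475). Lines between 2 gaps are not a group, as MOLT3 (6.58) and RPMI8402 (6.08) also differed by more than that limit. TNFAIP3 was highest in HPB-ALL, which was apart from KOPTK1, PF382, MOLT3 and DND41, and lowest in ALL-SIL and CCRF-CEM. For RELB, HPB-ALL alone was apart from its neighbour, and CYLD had DND41 and MOLT3 above a gap. No neighbours were apart for NFKB2, RELA or NFKBIA.

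Among the 28 pairs of tested members, TNFAIP3 and RELB had the highest Pearson correlation over lines under each treatment, narrowly so in DMSO. Their levels correlated at r = 0.88 over the 10 CompE arrays and at r = 0.70 (rho = 0.70) over the 10 DMSO arrays, and at 0.45 over 8 DMSO arrays without ALL-SIL and HPB-ALL. NFKB2 and NFKBIA followed in DMSO at r = 0.69 and were higher by rank (rho = 0.84) and without HPB-ALL and P12-ICHIKAWA (0.85), while their r in CompE was 0.40. TNFAIP3 and RELA had the lowest correlation of all pairs under each treatment, at -0.85 in CompE and -0.52 in DMSO (rho = -0.68), and -0.29 without CCRF-CEM and KOPTK1. Both TNFAIP3 relations thus rest in part on the lines at the ends. All of these correlations use the brightest probe set of each member. The second RELA probe set, 209878_s_at, also passed the filter, and its correlation with TNFAIP3 was not computed. LTB correlated with NFKB2 at 0.63 (rho = 0.68) and with TNFAIP3 at 0.47 in CompE, but at -0.29 and 0.36 in DMSO, where its lowest value was -0.43, with RELA. These values are descriptions of 10 lines, and the CompE and DMSO arrays are of the same lines. The arrays share 1 scaling but differ in RNA quality, with ACTB ratios of 1.02 to 9.76, and its part in the correlations was not tested.

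**Figure D4:**
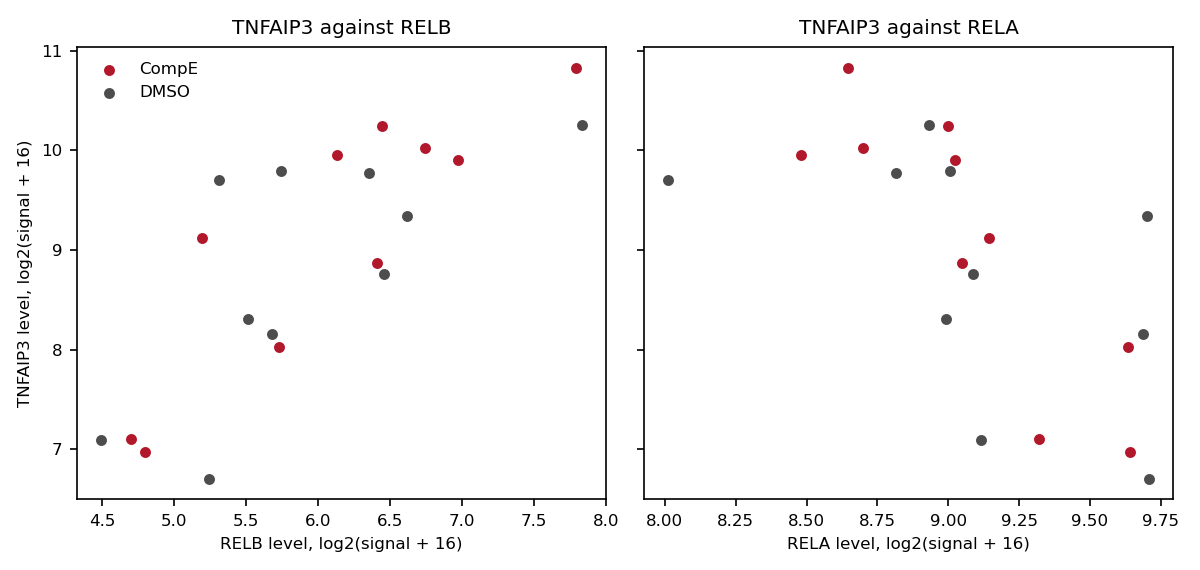
TNFAIP3 level against RELB level (left) and RELA level (right), each as log2(signal + 16) of the brightest probe set, with 10 CompE arrays in red and 10 DMSO arrays in grey. By these probe sets TNFAIP3 runs with RELB (r = 0.88 in CompE and 0.70 in DMSO) and against RELA (-0.85 and -0.52). The second RELA probe set is not shown.

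Over the 10 DMSO arrays, the tested genes whose level was most like that of LTB were MTM1 (r = 0.90), ADA2 (0.88), DYRK2 (0.87), PTK2B (0.87) and EED (0.86). MTM1 encodes a phosphoinositide phosphatase, ADA2 an adenosine deaminase, DYRK2 and PTK2B protein kinases and EED a Polycomb subunit. They are the highest values of a search over 7695 genes with 10 arrays, which gives high correlations among unrelated genes too. For each of them P12-ICHIKAWA was the highest and CCRF-CEM the lowest line in DMSO, as for LTB. Their correlation without these lines was not computed. Over the CompE arrays the correlation with LTB was 0.85 for PTK2B, 0.76 for ADA2 and 0.75 for DYRK2, but 0.39 for EED and 0.31 for MTM1.

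Beyond the members, 65 other genes of the pathway were tested, out of 115 listed. Under CompE 3 of them rose and 0 fell (limma, adjusted p under 0.05), which is 4.62% against 7.17% of all genes, and 23 (35.4%) had an unadjusted p under 0.05, against 25.1% of all tested genes. Over all tested genes 303 rose and 249 fell, but 116 rose and 340 fell after median centring. With that centring the pathway count was 1, IRF1, which fell (-0.39, adjusted p = 0.0446). The median change of the 65 genes was 0.14, and that of all genes 0.04. Of the 65 genes 67.7% had a change above 0, against 58.9% of all genes. The count was 0 without DND41 (17 at an unadjusted p under 0.05), 1 without ALL-SIL, CCRF-CEM, CUTLL1, HPB-ALL, MOLT3 or RPMI8402, 2 without P12-ICHIKAWA, 5 without PF382 (where CD28 and IRF1 fell) and 8 without KOPTK1. IRF1, a transcription factor, is named after its values were seen.

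Adaptors and kinases had 1 of 18 genes called. BIRC2, a ubiquitin ligase of the TNF receptor complex and a close relative of BIRC3, read 937 to 2064 (median 1168) in CompE and 747 to 1830 (median 907) in DMSO. It rose in all 10 lines, by 0.38 ± 0.087 (SE, limma adjusted p = 0.0201), from 0.03 in KOPTK1 to 0.86 in HPB-ALL. It was not called without DND41 (adjusted p = 0.0513) or HPB-ALL (0.0545), or with median centring (0.0527), and the adjusted p with the ACTB ratio as a covariate was 0.034.

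Of 11 classical NF-kB targets tested, 2 rose. IER3, an early response gene, read 183 to 1425 (median 493) in CompE and 138 to 1517 (median 292) in DMSO and rose by 0.46 ± 0.122 (SE, limma adjusted p = 0.0355) in 9 lines. CUTLL1 had the largest rise, at 809 in CompE against 286 in DMSO, and P12-ICHIKAWA was the 1 lower line, at 1425 in CompE against 1517 in DMSO. BCL2L1, which encodes an inhibitor of apoptosis, read 159 to 1270 (median 438) in CompE and 141 to 881 (median 319) in DMSO. It rose by 0.55 ± 0.159 (SE, limma adjusted p = 0.0468) in 9 lines, most in CUTLL1, at 1258 in CompE against 310 in DMSO. The dimmer probe sets of BCL2L1 stood at -0.09 and 0.02, and their mean with the brightest was not called (0.16, limma adjusted p = 0.533). Of the 11 targets, 6 had an unadjusted p under 0.05, and 2 of these were lower in CompE in 9 lines, IRF1 at -0.32 ± 0.104 (SE, adjusted p = 0.0688) and CFLAR, which encodes an inhibitor of death receptor signalling, at -0.29 ± 0.102 (0.0886). The 10 other probe sets of CFLAR disagreed in direction, with changes from -0.27 to 0.35. CFLAR too is named after its values were seen, and the median of the list was 0.03. The calls of IER3 and BCL2L1 were lost in most alternatives, IER3 in 13 and BCL2L1 in 16 of 21.

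The other lists had 0 genes called. Among 5 TNF-family ligands tested, 4 had an unadjusted p under 0.05, and TNFSF9, at 0.41 ± 0.172 (SE, limma adjusted p = 0.151), and TNF, at 0.34 ± 0.141 (0.151), had the smallest values. TNFSF10, the death ligand TRAIL, was practically level with them in p but had a negative change, -0.46 ± 0.195 (adjusted p = 0.151), lower in 6 lines, and is named after its values were seen. TNF read 41.0 to 491 (median 77.5) in CompE and 12.8 to 491 (median 66.3) in DMSO, and without KOPTK1 it was called (0.42, adjusted p = 0.0491). In the T-cell receptor arm, 3 of 7 genes had an unadjusted p under 0.05. The costimulatory receptor CD28 was at -0.45 ± 0.154 (adjusted p = 0.0814), lower in 9 lines, and was called without PF382 (-0.57, adjusted p = 0.031). The kinase PRKCQ was at 0.29 ± 0.107 (adjusted p = 0.0999).

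Of 8 brakes tested, 2 had an unadjusted p under 0.05, a share of 25.0% that is that of all genes, TNIP2, a partner of the TNFAIP3 protein, at 0.32 ± 0.100 (SE, limma adjusted p = 0.065) and N4BP1 at 0.32 ± 0.105 (0.0735). Both were called with line as a random block (adjusted p = 0.0442 and 0.041). Of 5 TNF receptor family genes 1 had such a p, TNFRSF1A, a TNF receptor, at 0.32 ± 0.126 (adjusted p = 0.126), and CD27 stood at 0.17 ± 0.197. None of the 3 other REL and IkB genes tested did, with NFKBIB at 0.18 ± 0.120 and REL at -0.15 ± 0.120. Among 9 tested neighbours of LTB on chromosome 6, TNF had the smallest p, followed by ATP6V1G2 at 0.25 ± 0.125 (adjusted p = 0.225), and their median change was 0.01, against the LTB value of 1.08.

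**Figure D5:**
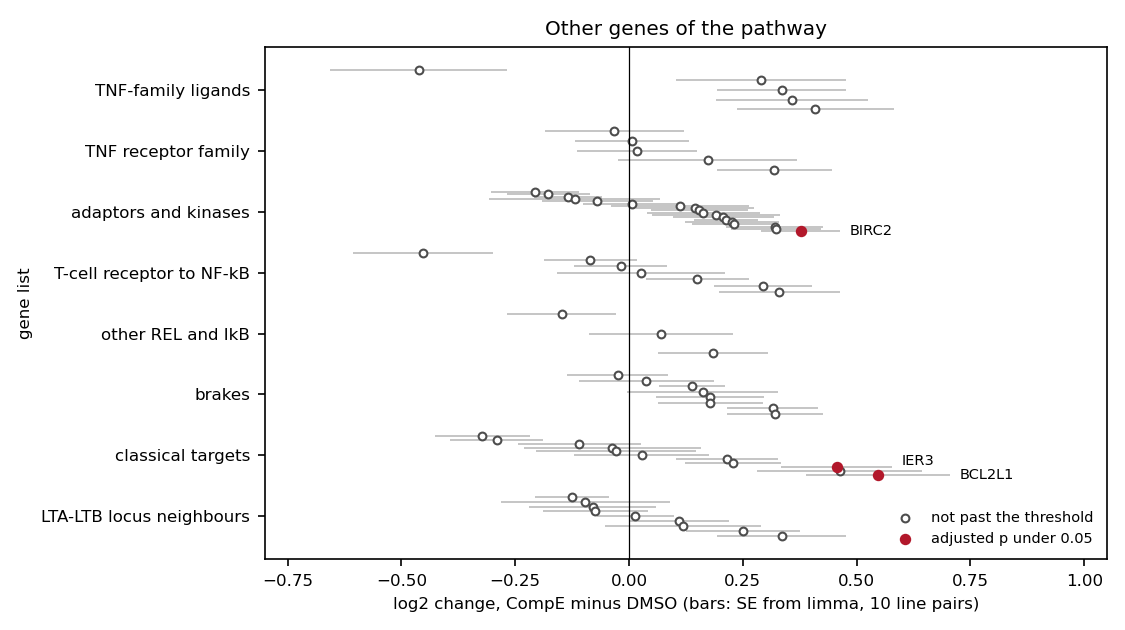
Change of the 65 other pathway genes under CompE by list (TNF appears in both its lists), as log2(signal + 16) in CompE minus DMSO with the SE from limma over 10 line pairs. Filled points are the 3 called genes, BIRC2, IER3 and BCL2L1, which rose by 0.38, 0.46 and 0.55.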

How the data were processed

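RNA of 10 T-ALL lines was measured on 20 arrays. The authors deposited MAS5 intensities, per the submitters' processing notes, which give no version. Trimmed means of about 250 on every array show a common scaling, which was kept. Of 22277 probe sets, 62 were controls, 19070 had 1 gene in the platform annotation, 1043 had several and 2164 were unlisted. Per gene the brightest probe set was used, and 7695 genes above the 40th percentile (a mean signal near 32.5) were kept. Sequences are from RefSeq.

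Log2(signal + 16) was fitted with R 4.3.3 and limma 3.58.1, with lines as fixed blocks, a variance trend on intensity and Benjamini-Hochberg adjustment at 0.05, two-sided. The labels name each array's line, and each of the 10 CompE arrays was most like its own line's DMSO array. In the simulation of CompE against DMSO with 7695 genes, 62.7% of changes of 0.5 log2 and 99.5% of changes of 1 were recovered. P-values of the CompE change weigh its mean over lines against its spread over lines, and the F-test of cell line uses the same error. The number of arrays limits the precision.

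Members and lists were chosen with earlier results of these data known. Named genes were all members, called genes of each list or otherwise the 2 with the smallest p, the 5 most like LTB in DMSO, and HES1. Alternatives changed the pseudocount, filter, scaling, probe set rule, block, RNA quality covariate and lines.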

Additional observations from a re-analysis of the deposited data

Results flagged for a closer look

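In 4 of 24 sets of 10 values, KOPTK1 lay apart from the nearest other line by more than the critical share of the range. For any line at either end, chance would give such a gap in about 1.2 of 24 independent sets. These sets are not independent, as each change is the CompE level minus the DMSO level. The count for KOPTK1 is therefore not weighed against that number. Of the 4 KOPTK1 values, 3 are changes between CompE and DMSO, the contrast on which the members were chosen, so they are given as a description. Its RELA level in DMSO (0.4734) and its RELA (0.4695) and RELB (0.4685) changes passed the critical share of 0.466 only narrowly. Its NFKBIA change, 1.42 on the log2 scale, lay far above the next highest of 0.10. Its RELA change of 0.98 was followed by 0.20, and its RELB change of 1.13 by 0.39. In DMSO its RELA level was the lowest, at 8.01 on the log2 scale, and the next lowest line stood at 8.82. The RELA change is the CompE level minus that same DMSO level, so these values are not independent of each other. The ACTB ratio of this line was 9.76 in CompE and 3.32 in DMSO, and its part in these values was not tested.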

How the results depend on the processing

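The changes of all 8 tested members moved by less than the SD of their change over lines in every alternative run. That margin is wide, as NFKB2 went from -0.67 to -0.03 within it, and the runs that alter the block cannot move a mean. Apart from the runs that left out 1 line, LTB ranged from 0.97 with a pseudocount of 64 to 1.27 without P12-ICHIKAWA, MOLT3 and CCRF-CEM. For these 3 lines the DMSO label gives the name of a cell line as the medium, which may be an entry error, so a true difference in medium is unsettled. Adding the ACTB ratio to the fit gave 1.12, and leaving out 1 line gave 0.95 to 1.27. Without the replicate block of lines, the count of called genes was 0 (limma, 369 at an unadjusted p under 0.05) and that of other pathway genes 0 (4 unadjusted), because the differences between lines then enter the error, and HES1 was not called either (adjusted p = 0.903). When the ACTB ratio was added, these counts were 318 and 1, and without the 3 lines 298 and 1. With median centring the pathway count was 1, and that gene was IRF1, at -0.39, not one of the 3 called before. When 1 line was left out, the count over all genes ranged from 181 to 1031 and the pathway count from 0 to 8, and the cause was not tested. The count of genes that differ between lines stayed within 1.5 times its value of 5871 in the 19 alternatives run for it, which leave out those on the block. The means of RELA and NFKBIA changed sign between alternatives, as did RELB (-0.05 with the covariate). Signals near or below 32.5, such as those of LTA and of 2 NFKB2 probe sets, limit what can be said of these genes.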
